A study of Mus musculus with 2 samples.

Results

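The cytosolic ribosomal proteins are the protein components of the ribosome that translates nuclear-encoded mRNAs. They were chosen by gene symbol: protein-coding genes whose RefSeq symbol starts with Rpl or Rps and a digit, with Rpsa, Rplp0, Rplp1 and Rplp2, and without the Rps6k kinases and the -ps pseudogenes. The rule found 89 genes, of which 85 had a named probe and 84 were measured on both arrays, out of 13843 genes measured. Rps19bp1 (log2 ratio 0.03) and Rps23rg1 (0.05) match the symbols but encode no ribosomal protein, so the values below are those of 82 ribosomal protein genes, 51 of the large and 31 of the small subunit.

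The samples were 2 cultures of C57BL/6 mouse bone marrow cells, 1 with 40 ng/ml GM-CSF and 40 ng/ml IL-6 (GM-CSF + IL-6) and 1 with 40 ng/ml GM-CSF and no IL-6 (GM-CSF ONLY). Both lasted 4 days and had 5% fetal bovine serum, so GM-CSF, which drives growth of myeloid cells, was common to both, and the comparison asks what adding IL-6, an inflammatory cytokine, does. The labels call both cultures myeloid-derived suppressor cells, immature myeloid cells that restrain T cells, and give neither a sort nor the number of mice pooled. RNA of each culture was hybridised to 1 single-colour Agilent array. There were thus no replicates, and differences are given as values without a p-value. Precision is limited by the number of arrays.

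The arrays came from the same slide and the same scan, and no spot was saturated. Printed signals are intensities scaled so that both arrays have a 75th percentile of 517 units, and the log2 ratio of a gene is GM-CSF + IL-6 minus GM-CSF ONLY. Of 14 myeloid markers 12 were measured, with summed signals of 1586670 units in GM-CSF + IL-6 and 1523110 units in GM-CSF ONLY, and they lay on both sides, 6 with a log2 ratio above 0 and 6 below. S100a9, a neutrophil and monocyte gene, was highest at 0.14 and Csf1r, the receptor of a macrophage growth factor, lowest at -0.25, with other probes up to 0.26. Markers of other cells were measured too. By the brightest probe, all 6 mast cell and basophil markers had log2 ratios above 0 (summed signal 84104 in GM-CSF + IL-6, 74885 in GM-CSF ONLY). The highest, Tpsb2 at 0.42, had another probe at -0.11. Of 5 megakaryocyte markers 4 were below 0 (33846 and 36970). The share above 0 over all genes measured was 43.8%. B cell markers summed to 23805 and 24343, and T and NK cell markers to 15615 and 14282. Erythroid markers summed to 1702 and 1547, with Alas2 and Klf1 not well above background on either array, and stromal markers to 288 and 207. The part of these cells in the values below was not tested, and in bulk samples fewer cells of a type and less RNA per cell cannot be told apart.

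A ribosome is built from a small subunit, which reads the mRNA, and a large subunit, which joins amino acids and lets the new chain out through a tunnel. Each subunit holds its proteins mostly in single copy, and the genes are scattered over the genome. Mammalian ribosomal protein mRNAs begin with a terminal oligopyrimidine (TOP) tract, a C followed by a run of C and T, through which the mTOR kinase and the binding protein LARP1 set their translation. An mRNA array measures the amount of these transcripts and not their translation.

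The sequences at the starts of 8 genes show what such a run looks like and what stands at the starts of 3 dim paralogs. Each is 30 bases, from 15 before to 15 after the annotated start, on the gene's own strand in RefSeq's GRCm38.p6, with a run of a C and at least 5 further C or T in capitals. The first 5 have the longest such runs within this window among the named genes, and the last 3 are paralogs with low signal.
Rpl27a (chr7:109519180-109519209, plus strand): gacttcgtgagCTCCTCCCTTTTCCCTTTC
Rpl15 (chr14:18270972-18271001, minus strand): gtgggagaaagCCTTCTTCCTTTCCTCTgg
Rpl13a (chr7:45128731-45128760, minus strand): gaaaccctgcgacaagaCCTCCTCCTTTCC
Rps18 (chr17:33955651-33955680, minus strand): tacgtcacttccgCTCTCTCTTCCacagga
Rps6 (chr4:86857353-86857382, minus strand): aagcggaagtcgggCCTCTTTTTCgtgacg
Rpl10l (chr12:66284387-66284416, minus strand): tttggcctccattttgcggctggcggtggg
Rpl39l (chr16:10170213-10170242, plus strand): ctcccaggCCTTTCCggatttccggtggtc
Rpl3l (chr17:24727811-24727840, plus strand): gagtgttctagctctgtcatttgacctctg
Within the window the runs of the first 5 are 19, 17, 13, 11 and 10 bases long, and that of Rpl39l is 7. Those of Rpl27a and Rpl13a reach its last base and were not followed beyond it. Neither Rpl10l nor Rpl3l has a run in this window.

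Over the family, 67 ribosomal protein genes had an entry in the promoter table, and 38 of them (56.7%) had a pyrimidine run within the 30 bases around the start, read on the gene's strand. The share was 29.0% of 69 mitochondrial ribosomal protein genes and 25.5% of all 27025 genes of the table. The letters CCGGAAG, the core bound by ETS factors such as GABP, were on either strand of the window from 250 bases before to 50 after the start in 38.8% of ribosomal protein genes, 37.7% of mitochondrial ones and 9.93% of all genes. AAGATGG, the core bound by YY1, was there in 14.9% of ribosomal protein genes, 18.8% of mitochondrial ones and 7.28% of all genes. A match is a description of these letters and not of a bound site.

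The cytosolic ribosomal protein transcripts were among the brightest on both arrays and differed little between the cultures. Of the 82 genes, 79 lay above the 75th percentile and 78 at no less than 32 times it. The 82 genes had a median signal of 143109 units in GM-CSF + IL-6 and 146420 units in GM-CSF ONLY. The highest signal, that of Rps14, a small subunit protein of the mRNA exit region, was 366771 and 357687 units. The signal of a probe depends on its sequence, so the order of genes by signal is not an order of transcript number. The genome also holds 309 pseudogene loci with such symbols, and a probe may bind transcripts of a near-identical copy, whose part in these signals was not tested. Of the left-out genes with a -ps symbol, Rpl34-ps1, annotated as protein-coding, had 51103 units in GM-CSF + IL-6 and 53560 units in GM-CSF ONLY (-0.07), and Rps15a-ps6, annotated as a transcribed pseudogene, had 258.9 and 226.0 units (0.20).

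**Figure D1:**
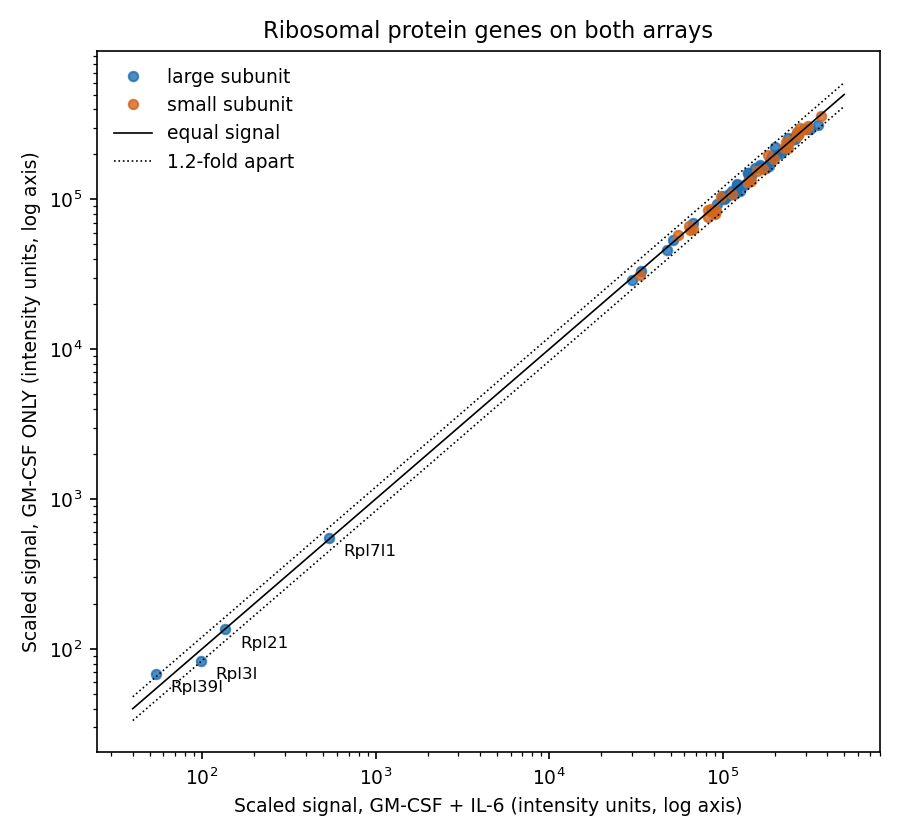
Scaled signal of 82 ribosomal protein genes in GM-CSF + IL-6 (x axis) against GM-CSF ONLY (y axis), both in intensity units on log axes, with large subunit genes in blue and small subunit genes in orange. The solid line marks equal signal and the dotted lines 1.2-fold apart. Nearly every gene sits in the upper right corner close to the line, and Rpl7l1, Rpl21, Rpl3l and Rpl39l are the dim ones.

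No ribosomal protein gene was 2-fold apart in either direction, where 0.282% of all genes measured were 2-fold higher and 0.101% 2-fold lower. Of the 8049 genes above the 75th percentile, 0 were 2-fold higher or lower, so the family did not differ from other bright genes in this. At 1.2-fold, 0 ribosomal protein genes were higher, against 6.36% of all genes, and 1 was lower, the dim Rpl39l, against 5.97%. Among genes brighter than the 75th percentile the comparable shares were 1.89% higher and 2.42% lower, and of the 79 bright ribosomal protein genes 0 passed in either direction. The bright members ran from -0.16 to 0.17 with a standard deviation (SD) over genes of 0.072. Genes outside the family that were at least 32 times the 75th percentile (849 genes) had an SD of 0.113, with 6 higher and 18 lower by 1.2-fold.

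Of the 82 genes, 48 lay above 0 and 34 below, so 58.5% were above 0, against 43.8% of all genes measured and 40.0% of genes above the 75th percentile. The median log2 ratio was 0.01 for the family and -0.02 for all genes. This split turned in 3 of the 10 alternative settings. It did not with cyclic loess (45 above 0, 37 below) or median centring (51 above, 31 below). With quantile normalization, which gives both arrays the same distribution of values, 31 were above 0 and 50 below. In the authors' deposited matrix of log2 values, whose columns have the same distribution, 29 were above and 52 below. With normexp, which models the background around each spot and was here followed by quantile normalization, 28 were above and 54 below. All 3 of these settings thus give both arrays the same distribution of values. The distance of the family's median from that of all genes was 0.035 in the first scaling, 0.00032 with quantile normalization, 0.0011 in the authors' matrix and -0.019 with normexp. It was 0.026 with cyclic loess, 0.035 with median centring and -0.0057 with no filter on dim probes. Across the 11 settings, the first included, 21 of the 82 genes were above 0 in each setting that measured them, 22 were below 0 in each and 39 lay on both sides.

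**Figure D2:**
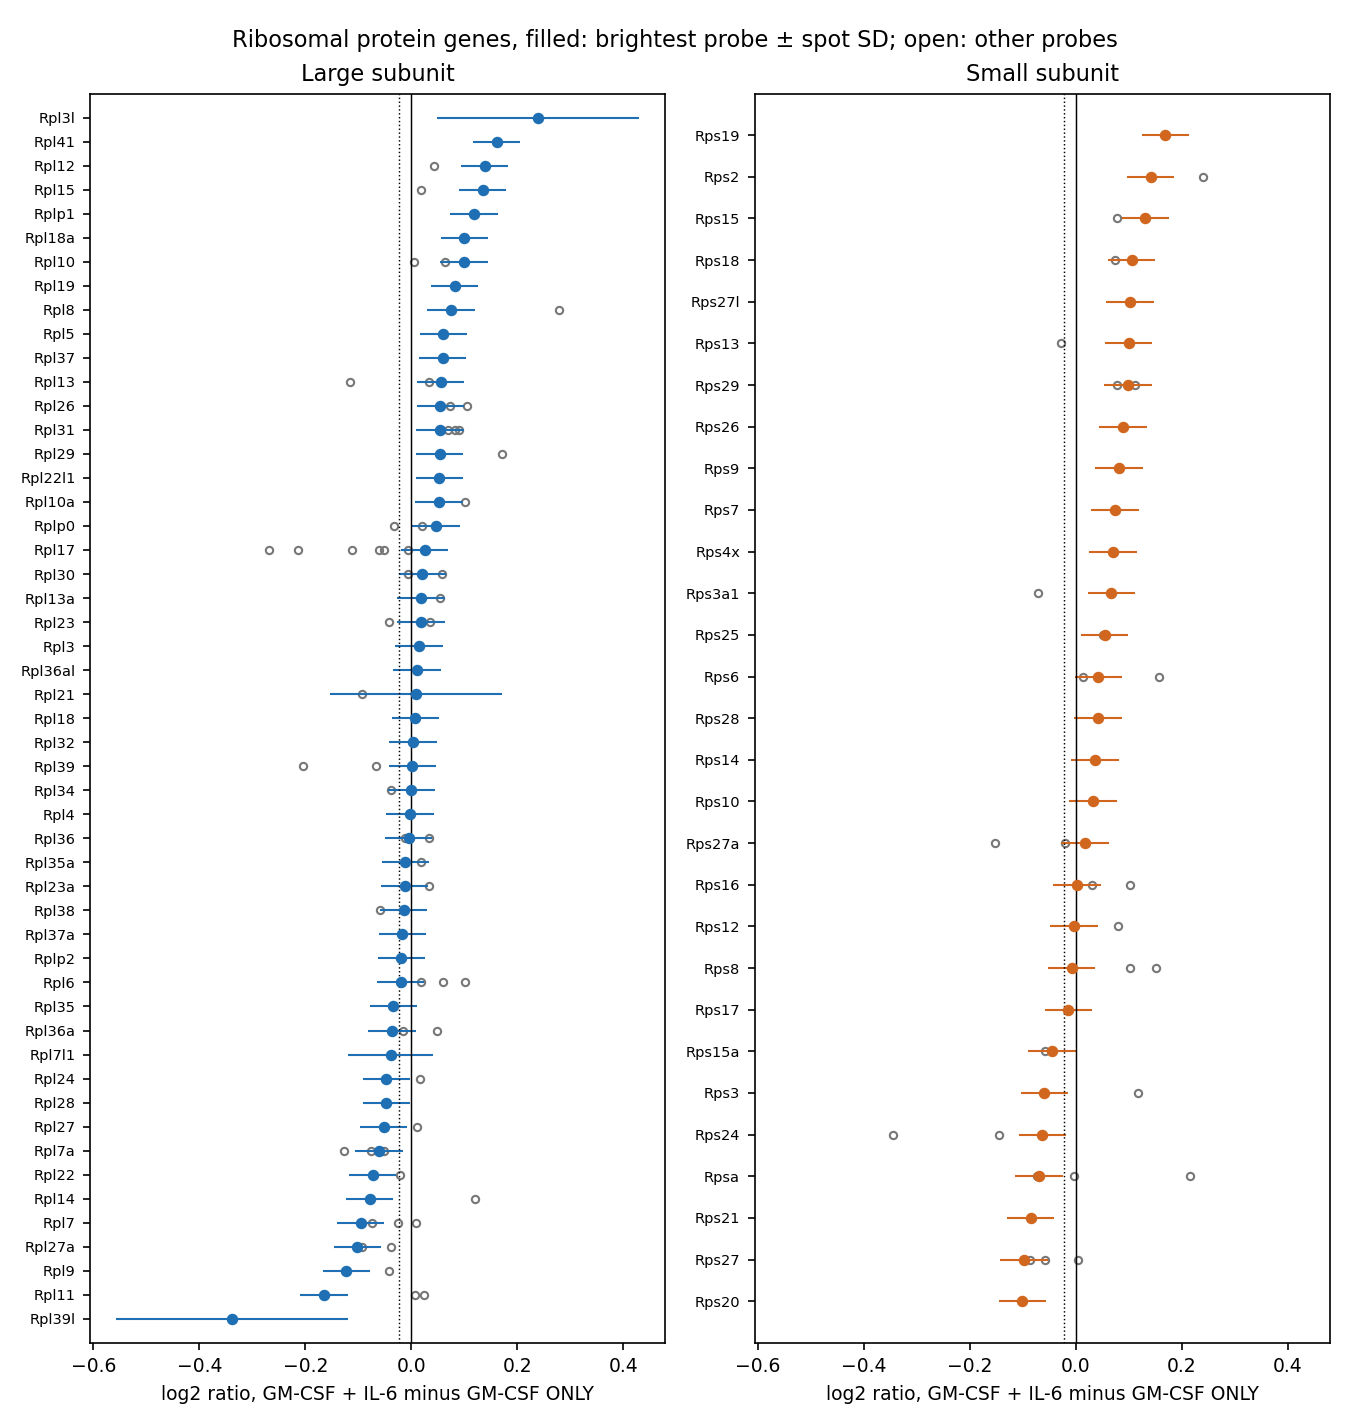
Log2 ratio (GM-CSF + IL-6 minus GM-CSF ONLY, x axis) of the ribosomal protein genes reported here (y axis), large subunit on the left and small subunit on the right. Filled points are the brightest probe with the spot SD as bars, open points are the gene's other probes, the solid line is 0 and the dotted line the median of all genes measured, -0.02. Both subunits spread on both sides of 0, and open points often lie on the other side of 0 from the filled one.

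The size of these ratios can be set against the technical spread. The spot SD, from 266 probes printed several times on each array, was 0.045 at the highest levels and 0.23 at the lowest. It covers spot error and not labelling or culture, and 37 of the ribosomal protein genes were brighter than every replicated probe, so that no spot SD was measured at their level. The spot SD printed for those genes is the 0.045 of the brightest replicated probes, which were dimmer. Of 170 probes for the family, 169 were printed once. Different probes of a gene give a second measure. Of 50 genes with several measured probes, 16 had all probes above 0, 7 had all below and 27 had probes on both sides. The pooled SD of probes within a gene was 0.075, and the SD over the 82 genes of their brightest probe was 0.085, so the spread among genes was little larger than that among probes of 1 gene. Across these 50 genes the ratios of the brightest and the second brightest probe correlated with Pearson's r = 0.39 and Spearman's rho = 0.40, and 30 pairs had the same sign. The probes share both RNA samples, and genes are not independent replicates.

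**Figure D3:**
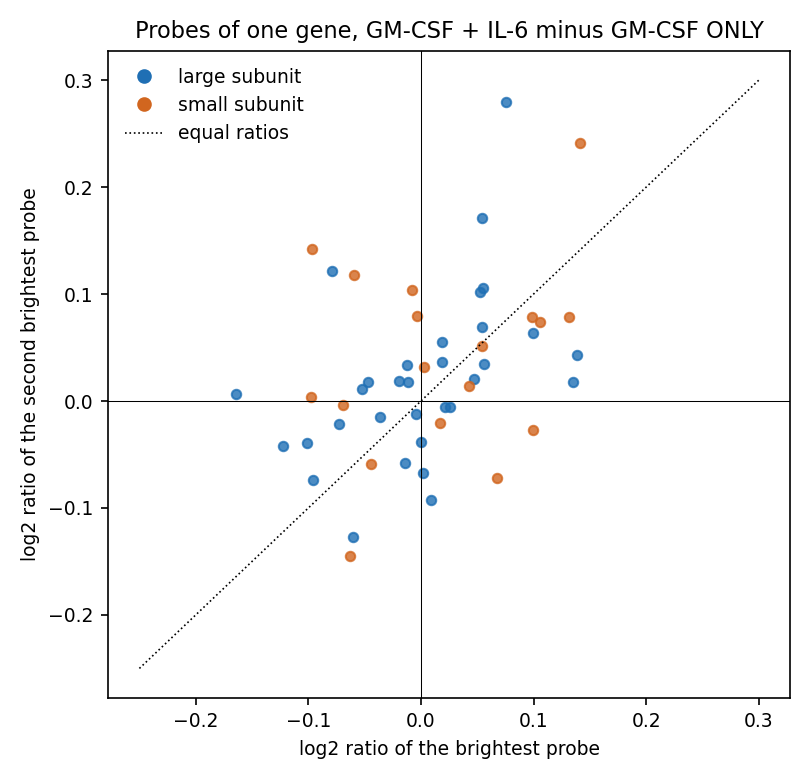
Log2 ratio of the brightest probe (x axis) against that of the second brightest probe (y axis) for 50 ribosomal protein genes with several measured probes, large subunit in blue and small subunit in orange, with the dotted line at equal ratios. The points form a loose cloud around 0, and 30 of 50 lie in the quadrants where both probes have the same sign.

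The median log2 ratio was 0.01 for the large subunit (29 above 0, 22 below) and 0.04 for the small subunit (19 above 0, 12 below), a difference of -0.03 with no test. It lay between -0.0315 and -0.0052 in the 10 alternative settings. With quantile normalization it was -0.0052, and in the authors' matrix -0.006. Both medians were below 0 with quantile normalization, in the authors' matrix and with normexp. Over all measured members, the median signal of the large subunit was 139670 units in GM-CSF + IL-6 and 143679 units in GM-CSF ONLY. That of the small subunit was 158408 and 153781 units.

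In the large subunit, the acidic stalk proteins Rplp0, Rplp1 and Rplp2 recruit the translation GTPases. Rplp1 had 176182 units in GM-CSF + IL-6 and 162247 units in GM-CSF ONLY (log2 ratio 0.12 ± 0.04, spot SD). Rplp0, which anchors the stalk and is often used as a reference gene, had 306444 and 296624 units (0.05 ± 0.04), and it was below 0 with quantile normalization, in the authors' matrix and with normexp. Rplp2 had 264186 and 267569 units (-0.02 ± 0.04). The stalk genes lay on both sides of 0.

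Rpl5 and Rpl11 form a particle with a small ribosomal RNA and, outside the ribosome, bind Mdm2, the ubiquitin ligase of p53. Rpl5 had 47589 units in GM-CSF + IL-6 and 45621 units in GM-CSF ONLY (log2 ratio 0.06 ± 0.04). Rpl11 had 199682 and 223786 units (-0.16 ± 0.04), the lowest ratio of any bright member. That probe lay in 1 of 9 crowded tiles of the array, out of 336 tiles, in each of which at least 4 probes without a gene name were 2-fold apart. The other probes of Rpl11 gave 0.02 and 0.01, so the lower value of the brightest probe was not seen in them.

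The remaining extremes of the large subunit were small. Rpl41, the shortest ribosomal protein, had 351058 units in GM-CSF + IL-6 and 313896 units in GM-CSF ONLY (log2 ratio 0.16 ± 0.04), and it was -0.03 with normexp. Rpl12, at the base of the stalk, had 184410 and 167524 units (0.14 ± 0.04, its other probe 0.04). Rpl15 had 125442 and 114264 units (0.13 ± 0.04, its other probe 0.02). These 3 genes and Rplp1 lay above 0 by the brightest probe, and the 2 with a second probe were smaller there.

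Below 0, Rpl9 had 236532 units in GM-CSF + IL-6 and 257443 units in GM-CSF ONLY (log2 ratio -0.12 ± 0.04, its other probe -0.04). Rpl27a, whose start has the longest pyrimidine run of those printed above, had 139022 and 149161 units (-0.10 ± 0.04, other probes -0.09 and -0.04). Rpl7 had 139670 and 149240 units (-0.10 ± 0.04), with other probes from -0.07 to 0.01. Each of these 3 was below 0 in each of the 11 settings.

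Several large subunit proteins are known for roles beyond the core reaction. Rpl10, a late-joining protein next to the peptidyl transferase centre, had 316271 units in GM-CSF + IL-6 and 295133 units in GM-CSF ONLY (log2 ratio 0.10 ± 0.04, other probes 0.06 and 0.0044). Rpl10a, which varies between ribosomes in mouse cells, had 203580 and 196297 units (0.05 ± 0.04). Rpl13a, part of a complex that silences inflammatory mRNAs in interferon-treated human monocytes, had 145553 and 143679 units (0.02 ± 0.04). These values differ by less than 1.2-fold, and that of Rpl13a turned below 0 with quantile normalization, in the authors' matrix and with normexp.

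Rpl22, dispensable for translation in general but needed for T cell development in mice, had 99589 units in GM-CSF + IL-6 and 104728 units in GM-CSF ONLY (log2 ratio -0.07 ± 0.04, and 0.04 with normexp). Rpl38, needed in mouse embryos for translation of Hox mRNAs, had 192702 and 194616 units (-0.01 ± 0.04). Rpl23 and Rpl26, which also bind Mdm2 or p53 mRNA, had 0.02 ± 0.04 and 0.06 ± 0.04, the first turning below 0 with quantile normalization, in the authors' matrix and with normexp, and the second with normexp. The wall of the exit tunnel (Rpl4, Rpl17, Rpl39) ran from -0.00256 to 0.03 and its rim (Rpl19, Rpl23a, Rpl26, Rpl31, Rpl35) from -0.03 to 0.08. Rpl17 had the most probes, 7, which ran from -0.27 to 0.03, and the brightest of them gave the highest ratio.

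In the small subunit, Rps19 is the gene most often mutated in human Diamond-Blackfan anaemia, a failure of red cell production. It had 89944 units in GM-CSF + IL-6 and 79991 units in GM-CSF ONLY (log2 ratio 0.17 ± 0.04), the highest ratio of any bright member, from a single probe. Of 11 genes of that disease, Rps19 included, 7 lay above 0 and 4 below, with a median of 0.06 and a range from -0.16 to 0.17. Rps15, a protein of the head of the subunit, had 91852 and 83852 units (0.13 ± 0.04), and Rps18, also of the head, had 82450 and 76623 units (0.11 ± 0.04). The second probes of Rps15 and Rps18 gave 0.08 and 0.07, on the same side.

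Rps2, Rps3 and Rps9 line the channel by which mRNA enters. Rps2 had 146168 units in GM-CSF + IL-6 and 132496 units in GM-CSF ONLY (log2 ratio 0.14 ± 0.04), and its other probe gave 0.24. Rps9 had a log2 ratio of 0.08 ± 0.04. Rps3, which also works in DNA repair and with NF-kappaB, had 63633 and 66292 units (-0.06 ± 0.04), and its value turned above 0 with the median over its probes and with normexp. The entry proteins therefore lay on both sides of 0, and Rps2 was above 0 with both of its probes.

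At the exit, Rps14, Rps26 and Rps28 ran from 0.04 to 0.09, and Rps14 had a log2 ratio of 0.04 ± 0.04. Rps10, Rps12 and Rps27a, of the beak, ran from -0.00341 to 0.03 in the first scaling. The head proteins Rps15 (0.13), Rps18 (0.11) and Rps20 (-0.10) lay on both sides of 0. The only probe of Rps10 lay on an outermost row or column of the array. Its ratio ran from -0.02 to 0.17 over the 10 settings that measured it. Rps27a, which is made as a fusion with ubiquitin, had 266506 units in GM-CSF + IL-6 and 263358 units in GM-CSF ONLY (0.02 ± 0.04). Rps6, the protein phosphorylated by the S6 kinases, had 158408 and 153781 units (0.04 ± 0.04), with its 3 probes from 0.01 to 0.16. With normexp and in the authors' matrix Rps6, Rps14 and Rps27a lay below 0, and with quantile normalization Rps14 and Rps27a did.

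Low ratios of the small subunit were close together. Rps20, a head protein that in human cells can also bind MDM2, had 278664 units in GM-CSF + IL-6 and 298850 units in GM-CSF ONLY (log2 ratio -0.10 ± 0.04). Rps27 had 183174 and 196006 units (-0.10 ± 0.04), with other probes from -0.09 to 0.0039. Rps21 had 54853 and 58176 units (-0.08 ± 0.04), and Rpsa, which also acts as a laminin receptor, had 269168 and 282340 units (-0.07 ± 0.04), with other probes from -0.07 to 0.22. These 4 genes were below 0 in each of the 11 settings.

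Rps24, outside the naming rule and named after its values were seen, had the lowest probe of the family. Its 3 probes gave -0.06, -0.15 and -0.34, the last at 3914 units in GM-CSF + IL-6 and 4970 units in GM-CSF ONLY. Rpl8, named for the same reason, had 1 probe at 0.08 and another at 0.28, the highest of the family, at 77764 and 64074 units.

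Paralogs of core ribosomal proteins are often expressed in particular tissues, and some had the dimmest probes of the family. Rpl39l, known from the male germ line, had 54.2 units in GM-CSF + IL-6 and 68.5 units in GM-CSF ONLY (log2 ratio -0.34 ± 0.22). Rpl3l, known from heart and skeletal muscle, had 98.7 and 83.6 units (0.24 ± 0.19). Both ratios are less than 2 spot SDs in size. Rpl10l, a testis paralog, was not well above background on either array (4.20 and 4.64 units), so no ratio is given.

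The other measured paralogs were brighter. Rpl22l1, the paralog of Rpl22, had 30100 units in GM-CSF + IL-6 and 29009 units in GM-CSF ONLY (log2 ratio 0.05 ± 0.04). Rps27l, which in human cells is induced by p53, had 33426 and 31131 units (0.10 ± 0.04), and Rpl36al had 33664 and 33408 units (0.01 ± 0.04). Rpl7l1, a protein linked to ribosome assembly, had 538.5 and 553.2 units (-0.04 ± 0.08). Of the 6 measured paralogs 4 lay above 0 and 2 below, with a median of 0.03. Rpl32l, Rpl37rt and Rps27rt, and the core protein gene Rps23, were not analysed here. Rpl21, a core protein gene, was dim with both of its probes, at 136.5 and 135.6 units for the brighter (0.01 ± 0.16).

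The members were also divided by the letters at their starts, as a description. The 35 measured genes with a run had a median log2 ratio of 0.00194 (19 above 0, 16 below), and the 27 without one 0.04 (17 above 0, 10 below). Genes with CCGGAAG had a median of 0.05 (17 of 26 above 0), against 0.01 without it (19 of 36 above 0), and genes with AAGATGG had -0.02 (4 of 10 above 0), against 0.04 without it (32 of 52 above 0). These groups overlap, and no difference between them was tested.

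Ribosomal proteins that the symbol rule leaves out had ratios in the range of the members. Fau, the precursor of a small subunit protein, had 395843 units in GM-CSF + IL-6 and 388216 units in GM-CSF ONLY (log2 ratio 0.03 ± 0.04). Rack1, a signalling scaffold on the small subunit, had 228456 and 245198 units (-0.10 ± 0.04). The proteins of the mitochondrial ribosome, which translates the mitochondrial genome, had 39 of 77 measured genes above 0 and a median log2 ratio of 0.00373, which was below 0 with the median over probes and without the crowded tiles and outermost spots. Their range was wider, from -0.23 for Mrpl1 to 0.42 for Mrpl35, and their SD over genes was 0.096, over dimmer probes.

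The rest of the translation machinery had medians on both sides of 0. For all genes measured, 43.8% lay above 0 and the median was -0.02. The translation elongation list, which is not limited to elongation factors, had 6 of 8 genes above 0 and a median of 0.04. Its highest genes were Eef1e1 at 0.11 and Eif5a at 0.11. Eef1a1, which brings aminoacyl-tRNA to the ribosome, had 155156 units in GM-CSF + IL-6 and 155085 units in GM-CSF ONLY (log2 ratio 0.000662). The translation initiation list had 27 of 55 genes above 0 and a median of -0.01. That median was above 0 with quantile normalization, cyclic loess, normexp, in the authors' matrix and with the median over probes. Genes of this list ran from -0.23 for Eif2ak3, a kinase of the unfolded protein response, to 0.21 for the scaffold Eif4g1 and the poly(A) binding protein Pabpc4. Other mRNAs with a TOP tract had 10 of 18 above 0 and a median of 0.00307, with Npm1 lowest at -0.23, although the probes of Npm1 ran up to 0.20.

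Ribosome biogenesis factors, which process ribosomal RNA and assemble the subunits, had 34 of 50 above 0 (68.0%), against 43.8% of all genes measured. Their median log2 ratio was 0.06, against -0.02 for all genes, and it was between 0.05 and 0.07 in the 10 alternative settings. Dkc1, the pseudouridine synthase of ribosomal RNA, had 573.5 units in GM-CSF + IL-6 and 478.1 units in GM-CSF ONLY (0.26 ± 0.08). The helicase Ddx18 had 3053 and 2569 units (0.25 ± 0.05), and its other probe gave 0.05. Utp4, of the small subunit processome, had 1614 and 1359 units (0.25 ± 0.06). Of the 50, 0 were 1.2-fold higher or lower, against 6.36% and 5.97% of all genes. Among genes above the 75th percentile these shares were 1.89% and 2.42%. Dkc1 lay just inside the 1.2-fold limit (0.262 against 0.263).

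RNA polymerase I and its factors, which transcribe ribosomal RNA genes, had 6 of 11 above 0 and a median of 0.03, below 0 with normexp. Ubtf, the upstream binding factor, was lowest at -0.16 ± 0.04 with another probe at 0.09, and Taf1a was highest at 0.39 ± 0.23 with a dim probe. Host genes of small nucleolar RNAs had 5 of 8 above 0 and a median of 0.03, also below 0 with normexp. S6 kinases and the TOR pathway had 7 of 18 above 0 and a median of -0.04, which was -0.000967 with the median over probes. They ran from -0.18 for Tsc1, an inhibitor of TOR, to 0.47 ± 0.21 for Akt1s1, another inhibitor, measured by a dim probe. Rps6kc1 had 0.14 ± 0.19. Mtor itself had 377.0 units in GM-CSF + IL-6 and 415.4 units in GM-CSF ONLY (-0.14 ± 0.09), and Larp1 -0.14 ± 0.04 with another probe at 0.17. The p53 and ribosome stress list had 7 of 10 above 0, against 43.8% of all genes measured, and a median of 0.10. It ran from -0.25 for Zmat3 to 0.25 for Bax. Mdm2, the ligase that free Rpl5 and Rpl11 bind, had -0.16 ± 0.04, and Cdkn1a, a cell cycle inhibitor induced by p53, had 0.22, with another probe at -0.05.

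**Figure D4:**
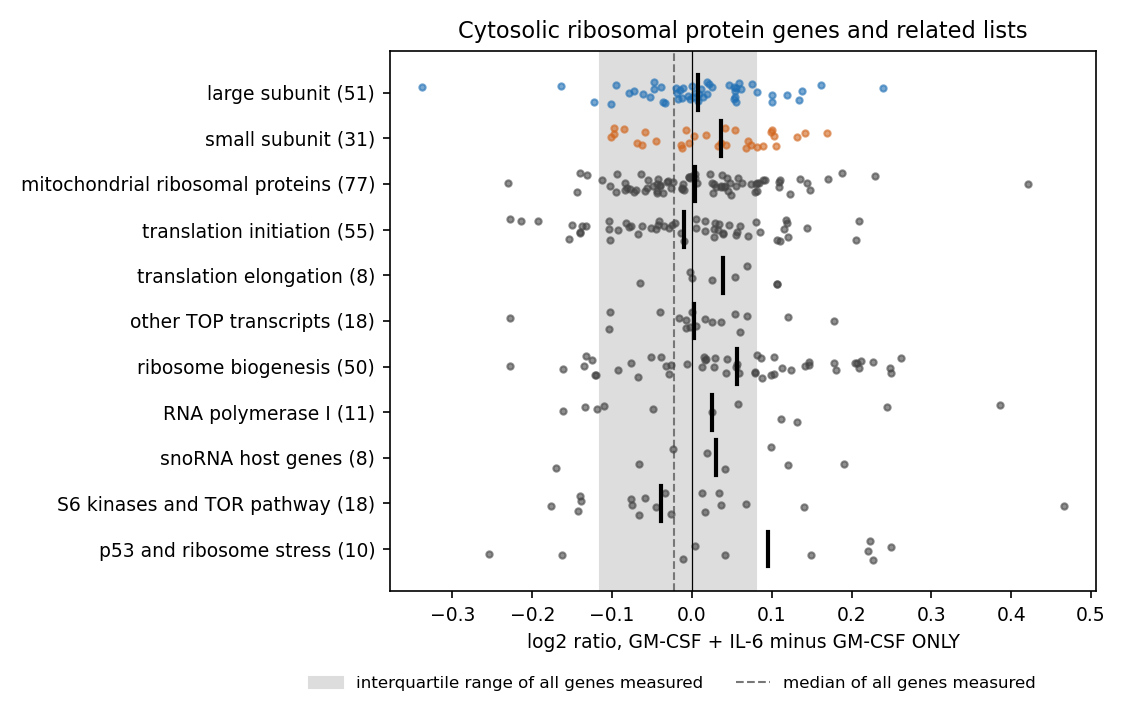
Log2 ratios (GM-CSF + IL-6 minus GM-CSF ONLY, x axis) of the measured genes of each list (y axis, number of genes in brackets), 1 point per gene, with a black bar at each list's median, a grey band for the interquartile range of all genes measured and a dashed line at their median of -0.02. The large and small subunit genes lie mostly inside the grey band, with medians of 0.01 and 0.04, and the medians of the other lists run from -0.04 to 0.10.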

How the data were processed

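Expression was measured in 2 mouse samples, 1 array per condition. The authors read the spots with Agilent Feature Extraction (version 10.7.1.1, per the file headers). The deposited processed intensity was turned to log2 and the array's 75th percentile over non-control spots was subtracted (486.2 for GM-CSF + IL-6, 549.7 for GM-CSF ONLY). The authors' deposited matrix holds log2 values whose sorted columns differ by at most 0.00136, and its software was not given in the sources used here. Flagged spots were left out, spots of a probe averaged, and a probe counted as measured when at least 50% of its spots were well above background. Each gene took its brightest probe measured on both arrays.

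Probes were named by accession through a RefSeq table of GRCm38.p6, which is also the source of the promoter sequences. The members, lists and naming rule were chosen with earlier results of these data known, and the role groups (stalk, tunnel, entry, exit, beak, anaemia) after the values were seen. Named were the 5 highest and 5 lowest ratios of each subunit, the paralogs, genes not measured, genes whose probes differ by over 0.5 (0 did) and a set of well-studied members, with up to 3 genes at each end of a related list. A few genes are not reported here. Rps24, Rpl8, Rps9, Rpl17, Rpl21 and others given by their range were named outside that rule. For the map, 384 rows and 164 columns of spots were cut into 336 tiles. Spot error was taken from probes with at least 5 usable spots, as the SD of their log2 ratios within each of 5 level bins. The alternatives changed the scaling (quantile, cyclic loess, median centring), the background (normexp, offset 50) and the source (the authors' matrix). The normexp setting started from the mean spot signals and was followed by quantile normalization, so it changed background and scaling together. Others changed the filter on dim probes, the treatment of outlier spots, the probe rule (median over probes) and the positions used. Tools were Python 3.11.15, numpy 2.4.6, pandas 2.3.3, scipy 1.17.1, R 4.3.3 with limma 3.58.1, and matplotlib 3.10.9.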

Additional observations from a re-analysis of the deposited data

How the results depend on the processing

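In the first scaling 0 of the 8049 genes above the 75th percentile were 2-fold higher or lower. In each of 10 alternative settings 0 ribosomal protein genes were 2-fold higher or lower. Of 816 gene ratios recomputed in them, 99 moved by more than the spot SD, 48 of them under normexp and 17 where the median over probes was taken. Of 230 summary values 19 moved. With quantile normalization 31 ribosomal protein genes and 18 large subunit genes lay above 0, and the small subunit median was -0.0152. In the authors' matrix 29 ribosomal protein genes were above 0 and 52 below, 17 and 34 of the large subunit, 12 of the small subunit were above 0, and its median was -0.0152. With normexp 28 were above 0 and 54 below, 16 and 35 of the large and 12 and 19 of the small subunit, with medians of -0.042 and -0.0138, and 0 were 1.2-fold lower, as was so with the stricter filter on dim probes, which leaves Rpl39l out. Relative to the median of all genes the family's median was below 0 with normexp (-0.019) and with no filter on dim probes (-0.0057) and above 0 in the other 8 settings, and the cause was not tested. Slide or scan as a block was not possible with 1 array per condition. No paired analysis was possible because there was 1 array in each condition. Signals near background limit the paralogs, and the highest signals have no replicated probe.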
